A study of Homo sapiens with 8 samples.

Results

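Strengthened pre-existing sites are places in the genome that carried an H3K27ac peak in every library of both genotypes, but whose peak was low in WT and high in CREBBP-KO cells. They were chosen by the deposited fold of each peak, a linear ratio of ChIP signal over the local background. Adjoining peaks from the 6 lists were joined, which gave 143733 intervals, of which 52187 had a peak in all 6 lists. Of these, 11853 had a highest fold under 5 in all 3 WT libraries and could qualify. A total of 1450 intervals, 12.2% of the 11853, also had a fold of at least 5 in all 3 CREBBP-KO libraries and form the set described here. The 951 intervals that moved the opposite way by the same limits, at least 5 in all WT and under 5 in all CREBBP-KO libraries, are called weakened sites and serve as a comparison.

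The libraries came from HCEC-1CT, a human colonic epithelial cell (HCEC) line immortalized with CDK4 and hTERT, with 3 libraries of WT cells, which the study calls parental, and 3 of cells in which CREBBP was knocked out with Cas9 and guide RNAs. By the study's methods the line had first received a doxycycline-inducible Cas9 on a lentiviral vector, and a clone of high Cas9 activity was taken on. Each library was made from a separately grown population of healthy, subconfluent cells. The ChIP-seq methods call the CREBBP-KO cells monoclonal, whereas the account of how the knockouts were made has several clones per target pooled and set beside a pool of parental subclones. Which of these gave the libraries is not clear, and if it was 1 clone, the genotype and the clone cannot be told apart. The CDK4 and hTERT immortalization is shared by both genotypes. The lists measure acetylated chromatin and give no check of the CREBBP deletion itself.

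H3K27ac is the acetyl mark on lysine 27 of histone H3, which sits on the nucleosomes flanking active promoters and enhancers. CREBBP, also called CBP, and its close paralogue EP300 are the acetyltransferases best known for writing it. Deacetylases remove the mark, and BET proteins bind acetylated chromatin and promote transcription.

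The WT lists held 86163 to 93567 peaks and the CREBBP-KO lists 99008 to 111697. The median highest fold over the 52187 shared intervals ranged from 6.43 to 6.67 over the WT libraries and from 6.67 to 6.87 over the CREBBP-KO libraries. A fold of 5 was undercut by 57.0 to 58.4% of peaks in the WT lists and by 60.6 to 63.5% in the CREBBP-KO lists, so the limit stood higher in the ranking of the CREBBP-KO lists. As a check of the cell type, a promoter peak in all 6 lists was found for 2 of 8 epithelial markers, namely EPCAM and KRT8, and for 7 of 7 mesenchymal markers. KRT18 had one in 5 lists, while CDH1, KRT19, CLDN4, ESRP1 and GRHL2 had none. Of 10 intestinal markers, 2 had a promoter peak in all 6 lists, MUC2 among them, and the other 8, CDX2, HNF4A and VIL1 among them, had none. The promoter folds of these markers moved with the genotype. Of the 7 mesenchymal markers, 6 had all CREBBP-KO folds above all WT folds, against 46.9% of the 10540 promoters of at least 5 in some WT library, and TWIST1 was the exception. COL1A1 had 19.7, 22.1 and 21.7 in WT and 33.2, 37.3 and 36.3 in CREBBP-KO, and FN1 had 24.3, 20.0 and 21.2 against 35.5, 36.1 and 35.3. MUC2 had 4.45, 4.76 and 4.54 against 8.72, 9.83 and 11.6, and KRT8, with 4.56, 4.97 and 3.60 against 4.64, 6.82 and 6.47, overlapped. The part of cell state in the strengthened sites was not tested. None of 4 immune markers had a promoter peak in any list. Of the endothelial markers, CDH5 and KDR had none and PECAM1 had one in the 3 CREBBP-KO lists.

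Sequences around the summit are given for 2 sites between genes with a step over 3. They are also given for the 2 promoters with the largest step whose transcript start lies outside the window. The sites were picked by class, so they do not show how varied strong members are. Each run holds 201 bases of the hg38 plus strand centred on the highest summit of the 6 lists. Capitals mark matches to the motifs described further on.
COG6, between genes, chr13:40059291-40059491: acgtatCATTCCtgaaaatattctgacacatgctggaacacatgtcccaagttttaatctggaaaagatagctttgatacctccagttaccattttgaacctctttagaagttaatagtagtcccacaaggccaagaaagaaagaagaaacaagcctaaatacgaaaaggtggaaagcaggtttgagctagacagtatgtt
AOAH, between genes, chr7:36746692-36746892: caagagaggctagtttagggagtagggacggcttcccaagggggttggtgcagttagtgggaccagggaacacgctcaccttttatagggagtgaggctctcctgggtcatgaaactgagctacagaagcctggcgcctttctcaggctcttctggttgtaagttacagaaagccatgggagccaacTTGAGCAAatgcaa
FOXO1, promoter, chr13:40666973-40667173: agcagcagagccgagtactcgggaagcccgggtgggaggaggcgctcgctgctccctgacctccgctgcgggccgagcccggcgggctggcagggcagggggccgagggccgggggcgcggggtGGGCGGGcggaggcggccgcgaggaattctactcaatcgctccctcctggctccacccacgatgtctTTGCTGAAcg
FOXP1, promoter, chr3:71583224-71583424: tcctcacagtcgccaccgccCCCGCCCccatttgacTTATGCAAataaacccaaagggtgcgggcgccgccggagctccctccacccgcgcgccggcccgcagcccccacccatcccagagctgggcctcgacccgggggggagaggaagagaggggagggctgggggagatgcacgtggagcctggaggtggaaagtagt

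The COG6 window held a TEAD motif and the AOAH window a CEBP motif, both on the minus strand, with 2 and 3 CG pairs and a GC content of 37.8 and 52.7%. Both promoters held a KLF/SP and a CEBP motif, with 22 CG pairs at FOXO1 and 15 at FOXP1, and a GC content of 73.6 and 69.2%.

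At the 1450 sites the median of the highest fold was 3.96, 4.01 and 3.93 in the WT libraries 1, 2 and 3, and 6.35, 6.45 and 6.47 in the CREBBP-KO libraries 1, 2 and 3. The rule fixes this gap, so the values describe the set and are no test of it. The highest fold reached in any CREBBP-KO library was 17.6. The median site stood at percentile 44.3, 44.3 and 41.3 of its WT list and at percentile 73.1, 71.8 and 70.7 of its CREBBP-KO list. The sites thus moved from below the middle of the WT lists into the upper part of the CREBBP-KO lists, well short of their top. Over all 52187 shared intervals the median percentile was 70.7, 70.7 and 68.2 in WT and 74.9, 73.8 and 72.6 in CREBBP-KO. A smaller rise in percentile was therefore general, and the CREBBP-KO lists were also longer. All sites under 5 in WT had medians of 3.69, 3.69 and 3.64 in WT and of 4.14, 4.18 and 4.08 in CREBBP-KO libraries. The fold is a ratio within each library and does not measure the total amount of the mark. The study reported a moderate reduction of H3K27ac in CREBBP-KO cells by mass spectrometry, of borderline significance. Its immunofluorescence gave a significant decrease, minimal in size beside the effect of a deacetylase inhibitor. In bulk chromatin, a larger share of the signal, more acetylation per cell and more cells carrying the mark cannot be told apart.

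**Figure D1:**
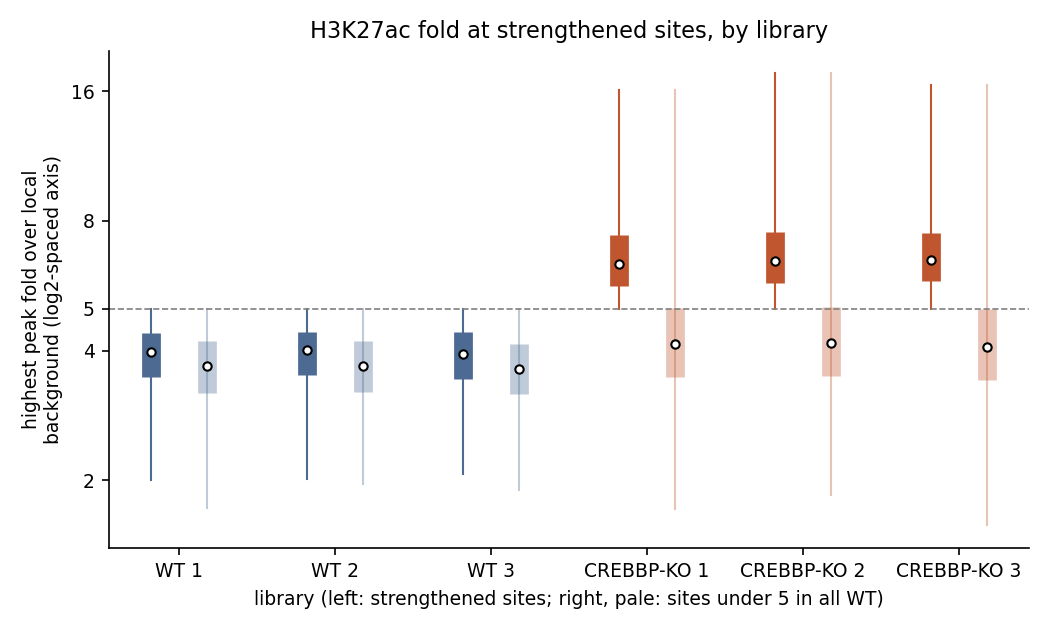
Highest H3K27ac peak fold over the local background (log2-spaced axis) in each WT and CREBBP-KO library, at the 1450 strengthened sites (dark) and at all 11853 sites under 5 in all WT libraries (pale); points are medians, bars the middle 50% and lines the full range. The WT medians of the strengthened sites (3.93 to 4.01) and their CREBBP-KO medians (6.35 to 6.47) sit on either side of the dashed limit of 5 that chose them, while the pale medians in CREBBP-KO are 4.08 to 4.18.

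The depth of the rise varied widely. The step, the lowest CREBBP-KO fold divided by the highest WT fold, had a median of 1.35 with quartiles of 1.2 and 1.54. It was at least 1.5 at 408 sites (28.1%), at least 2 at 73 sites (5.03%) and at least 3 at 3 sites. At 115 sites (7.93%) it was under 1.1. The mean of the CREBBP-KO folds divided by the mean of the WT folds had a median of 1.68 and reached 4.43. The median coefficient of variation between the 3 libraries of a genotype was 11.7% in WT and 10.2% in CREBBP-KO. This spread is taken around the mean of each genotype, whereas the step compares the closest libraries of both, so they are not on one scale. The rule also bounds the folds of each genotype at 5, which limits the spread at these sites. All folds of CREBBP-KO lay above all of WT at 26.6% of the 52187 shared intervals, and all percentiles did so at 29.0%. The opposite order of fold was found at 14.2%.

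The same measure was also read in libraries that took no part in the choice on fold. Each of the 9 pairs of a WT and a CREBBP-KO library was set aside in turn, the fold rule was applied to the other 4 libraries, and the pair set aside was then read. Only the need for a peak in all 6 lists still involved that pair. Each choice gave 2312 to 2577 sites. At these, the left-out CREBBP-KO library was above the left-out WT library in fold at 85.1 to 90.1% of sites, against 53.7 to 60.4% of all shared intervals and 60.4 to 65.5% of sites under 5 in the WT libraries. The median ratio of the left-out pair was 1.40 to 1.48 at the chosen sites and 1.03 to 1.09 over all shared intervals. Of the chosen sites, 56.3 to 62.7% would also have passed the rule in the left-out pair. CREBBP-KO thus stayed above WT at most sites in libraries that were not used, with a ratio below the 1.68 of the full rule.

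A limma fit over all 52187 shared intervals, run on normal scores of the ranks within each list, called 12.5% of them higher and 12.1% lower in CREBBP-KO at a Benjamini-Hochberg adjusted p under 0.05. Of the 1450 strengthened sites, 1122 (77.4%) were called higher and 0 lower, and 1350 were higher at an unadjusted p under 0.05. The rule and the fit used the same contrast, so these counts describe the set. The calls set no limit on the size of the shift. The study's own differential peak analysis, with a limit on fold change and a stricter false discovery rate, found most H3K27ac peaks unaffected. Normal scores give every library the same distribution over the shared intervals. The near balance of higher and lower calls is therefore partly set by this scale and is no result about the genotypes. With log2 folds in place of ranks, 10108 of all shared intervals were called higher and 4843 lower, in place of 6544 and 6318. Without CREBBP-KO replicates 1, 2 or 3 the calls among all shared intervals were 4505, 4365 or 4271 higher and 4925, 4838 or 4725 lower, so that lower calls then outnumbered higher ones, and those among the strengthened sites fell to 848, 838 or 827. With the scores centred by GC content, 5271 were called higher and 6066 lower, and 1053 of the strengthened sites were called higher.

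Of the 20 sites with the largest step, 12 were between genes, 6 in introns and 2 at promoters, so that 90% lay away from promoters, close to the 86.4% of all strengthened sites. Here a promoter is a summit within 1 kb of the start of a protein-coding transcript. Sites are named by the protein-coding gene whose start is nearest, which does not show that the gene is regulated from there, and no expression was measured in this series.

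The site with the largest step lay between genes on chromosome 18, 160 kb from the start of RBBP8 (ENSG00000101773.19), which encodes CtIP, a factor in DNA end resection. Its fold was 4.42, 4.02 and 4.10 in the WT libraries and 16.1, 16.5 and 16.5 in the CREBBP-KO libraries, a step of 3.64. The replicates of each genotype lay close together, with 4.18 ± 0.209 (SD, n = 3) and 16.4 ± 0.229 (SD, n = 3).

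The next largest step, 3.30, was on chromosome 13 from 40056916 to 40062432 (hg38), nearest to COG6, a subunit of a Golgi tethering complex, though 404 kb from its start. WT folds were 4.21, 2.98 and 3.05, and CREBBP-KO folds 13.9, 17.6 and 13.9. The WT libraries differed among themselves by less than the gap between the genotypes, and CREBBP-KO replicate 2 was the highest. Another site with a step over 3 lay 22.2 kb from AOAH, which encodes an enzyme that inactivates bacterial lipopolysaccharide. Its folds were 2.96, 3.32 and 2.48 in WT and 11.9, 10.4 and 10.8 in CREBBP-KO.

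An intron of FOXO1, a forkhead factor restrained by insulin and AKT signalling, held the fourth step, 2.89, on chromosome 13. It had 2.37, 2.90 and 2.39 in WT and 8.38, 9.54 and 9.95 in CREBBP-KO libraries. Beside BDH1, which encodes a mitochondrial enzyme of ketone body metabolism, a site 23.7 kb from the start had 3.98, 4.97 and 3.98 in WT and 13.8, 16.3 and 14.9 in CREBBP-KO, a step of 2.77. WT replicate 2 came close to the limit of 5 there, and the other 2 WT libraries did not.

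SMAD7, the inhibitory SMAD of TGF-β signalling, had the sixth step, 2.71, at a GC-rich site (74.1% GC) between genes 24.6 kb from its start. Its folds were 3.95, 4.56 and 3.71 in WT and 12.8, 14.2 and 12.4 in CREBBP-KO. The remaining sites of the 20 had steps of 2.39 to 2.67. They lay near COG6 again, CCN4 (a matricellular protein induced by Wnt signals), PDXK (pyridoxal kinase), CRB1 (a cell polarity protein), COL4A4 (a chain of basement membrane collagen) and C1orf105, in an intron of the dynamin gene DNM3. They also included the LGALSL promoter and sites near PRIM2 (a DNA primase subunit), POU3F1 (a POU factor), CASK (a membrane scaffold), SMCO4, the FOXO1 promoter and CDKN3 (a phosphatase of cyclin-dependent kinases). The rule keeps the groups apart at every strengthened site, and the lowest CREBBP-KO fold among the 20 was 6.64, near POU3F1.

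**Figure D2:**
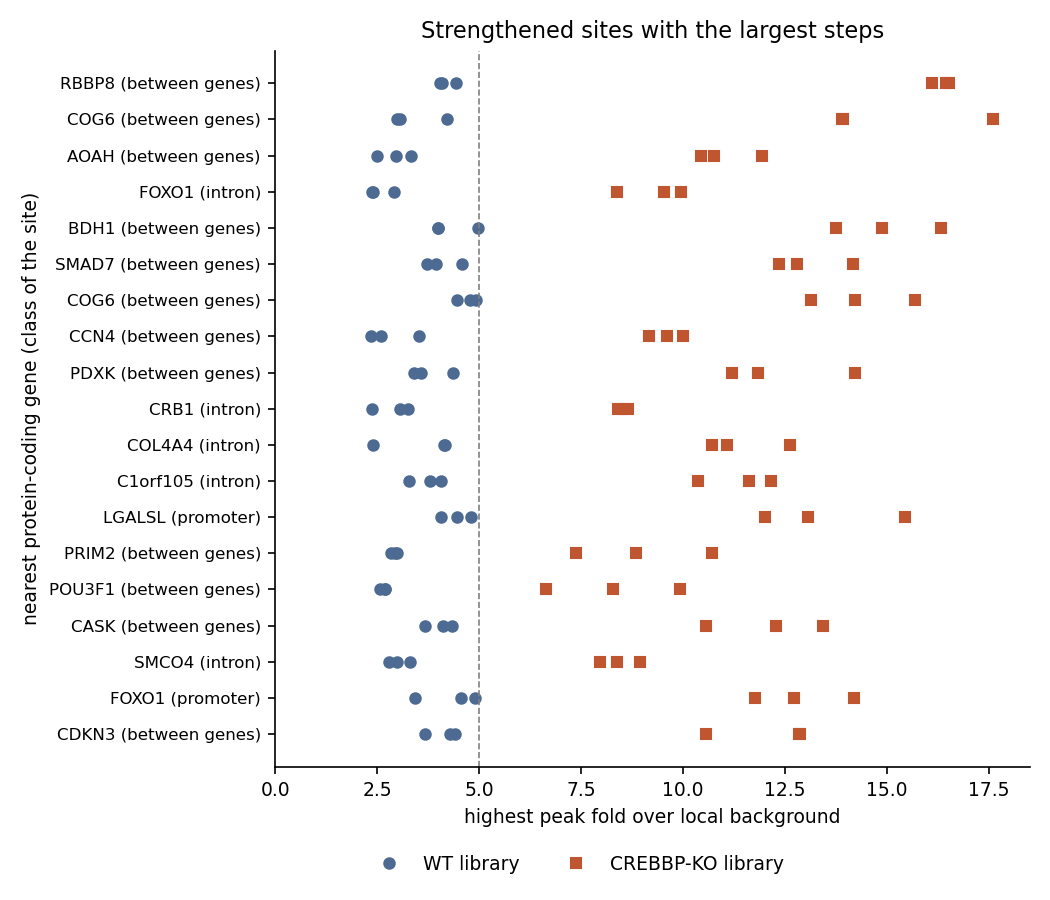
Highest H3K27ac peak fold over the local background (linear axis) in each of the 3 WT libraries (circles) and 3 CREBBP-KO libraries (squares) at 19 of the 20 strengthened sites with the largest step, ordered by step and named by nearest gene and class, with the limit of 5 dashed. The sites were chosen for this gap, which runs from a step of 3.64 near RBBP8 to 2.39 near CDKN3.

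At the limit itself the division was fine. The 3 sites just inside, near SSBP4, ATXN1 and the gene ENSG00000283321, had a lowest CREBBP-KO fold of 5.00 each, and so did the 3 sites just outside, near ELMO3, ERGIC1 and KLF5, when rounded to 3 digits.

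Promoters made up 197 of the 1450 strengthened sites, 13.6% (95% Wilson interval 11.9 to 15.4), at 195 genes. They were 6.40% (5.97 to 6.85) of all sites under 5 in WT, 21.6% (21.3 to 22) of all shared intervals and 1.79% (1.12 to 2.84) of the weakened sites. Introns held 41.4% of the strengthened sites, against 57.1% of the sites under 5 in WT, and 40.2% lay between genes, against 31.0%. Exons away from promoters held 4.83%, against 5.42%. Read the other way, 26.0% of weak promoters were strengthened (197 of 758), 15.8% of weak sites between genes, 10.9% of those in exons and 8.86% of those in introns. The excess of promoters was smaller when the fold of each library was centred by GC content, an alternative added after the data were seen. Promoters were then 7.48% of the sites that passed the rule, against 5.18% of those that could qualify. The intervals here and below cover counting error only.

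**Figure D3:**
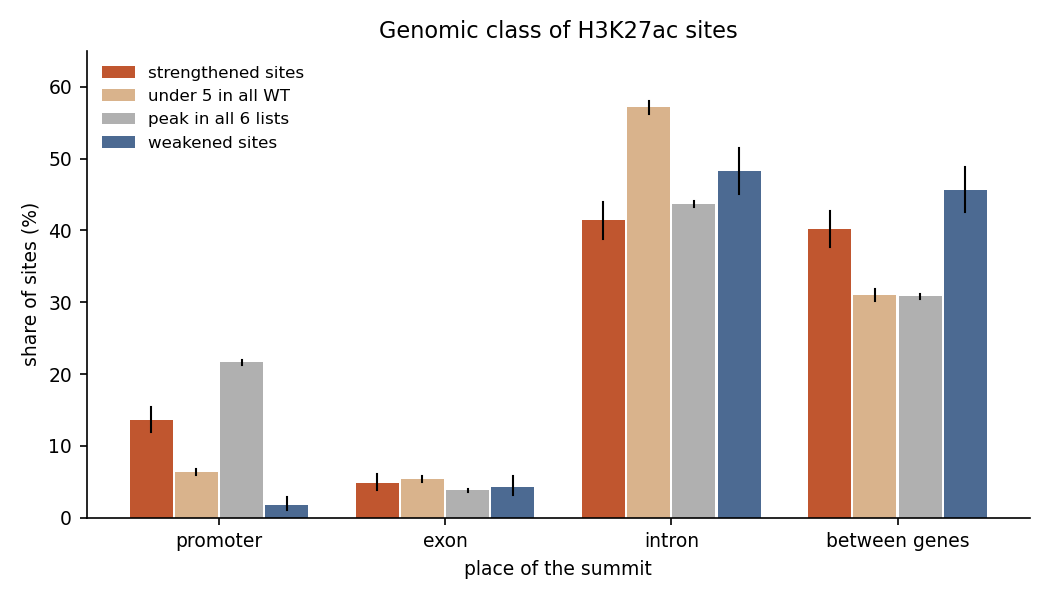
Share of sites (%) by place of the summit for strengthened sites, sites under 5 in all WT libraries, all sites with a peak in all 6 lists and weakened sites; bars start at 0 and lines are 95% Wilson intervals over sites. Promoters are 13.6% of strengthened, 6.40% of weak, 21.6% of all shared and 1.79% of weakened sites.

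The promoter share followed the step, with 9.37% (34 of 363) of sites at a step under 1.2, 13.8% (94 of 679) from 1.2 to 1.5 and 16.9% (69 of 408) at 1.5 or more. Strengthened sites also held more promoters at each starting level. When sites under 5 were grouped by mean WT fold (under 3, 3 to 3.5, 3.5 to 4, 4 to 4.5 and 4.5 to 5), promoters were 17.5, 10.7, 12.4, 13.9 and 19% of the strengthened sites and 6.56, 6.06, 5.10, 4.60 and 4.65% of the others. The group with the lowest folds rests on 11 strengthened promoters. The share of sites that were strengthened rose with the WT fold, from 6.15% to 26.8%. Sites that start nearer to 5 need less change to pass the rule, so this rise describes the rule and is no result about the sites.

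LGALSL, a galectin-like protein, had the largest promoter step, 2.51, on chromosome 2 from 64453038 to 64455073. Its folds were 4.06, 4.45 and 4.79 in WT and 13.1, 12.0 and 15.4 in CREBBP-KO. At the FOXO1 promoter they were 3.42, 4.54 and 4.90 in WT and 11.7, 14.2 and 12.7 in CREBBP-KO, a step of 2.40. The FOXO1 promoter was thus near the limit in WT replicates 2 and 3 and lower in replicate 1.

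FOXP1, another forkhead factor, had 3.84, 4.66 and 4.15 in WT and 10.5, 11.1 and 10.4 in CREBBP-KO, a step of 2.24, at a promoter on chromosome 3 from 71581414 to 71585339. CACNB2, a calcium channel subunit, had 2.90, 3.45 and 3.74 in WT and 8.30, 11.1 and 10.0 in CREBBP-KO, a step of 2.22. The promoter of COL4A4 accompanied its intronic site, with 2.49, 2.83 and 3.64 in WT and 8.46, 8.77 and 7.82 in CREBBP-KO. The other 5 of the 10 promoters with the largest step, those of FAM169A, FNDC4, THEMIS2, TG (thyroglobulin, the precursor of thyroid hormone) and DUOX1 (a dual oxidase that makes hydrogen peroxide), had steps of 2.09 to 2.14.

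Of the 197 strengthened promoters, 47 belonged to a gene with another promoter interval, and at 36 (18.3%) that other interval had a fold of at least 5 in all WT libraries. The 1253 sites away from promoters lay nearest to 1062 genes, and 762 (60.8%) of the sites lay nearest to a gene with a promoter fold of at least 5 in all WT libraries. This share was below the 69.7% of all 11095 distal sites under 5 in WT. A strengthened promoter at the same gene was found for 24 (1.92%) of the 1253. A further 111 sites (7.66%) lay within 1 kb of a start of another kind of transcript only, such as a noncoding RNA, against 7.94% of sites under 5 in WT. The median distance to a protein-coding start was 24.5 kb, against 23.8 kb for sites under 5 in WT and 47.2 kb for weakened sites.

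The 1450 sites were nearest to 1242 genes, 20.6% of the 6017 genes with any site under 5 in WT. One site was held by 1087 genes, 2 sites by 114 and 3 or more by 41. A weakened site was also assigned to 114 (9.18%) of the 1242. FOXO1 led with 5 of its 5 weak sites, followed by TNS1 with 5 of 11, TNS3 with 5 of 12, ZNF385B with 4 of 4 and CTAGE1 with 4 of 5. TNS1 and TNS3 encode tensins, which link integrins to actin at focal adhesions. At TNS3 the largest step, 2.20, was in an intron, with 3.51, 2.93 and 2.75 in WT and 9.09, 7.74 and 8.30 in CREBBP-KO. The other 4 TNS3 sites had steps of 1.24 to 1.35.

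The TNS1 sites included its promoter, with 4.74, 3.91 and 3.96 in WT and 6.38, 5.52 and 6.49 in CREBBP-KO, and steps of 1.17 to 1.77. In ZNF385B, which encodes a zinc-finger protein, all 4 sites were intronic, with steps of 1.33 to 2.00. At its strongest site the folds were 3.66, 3.66 and 2.78 in WT and 8.45, 7.33 and 7.61 in CREBBP-KO. The CTAGE1 sites lay between genes at 17.1 to 142 kb from its start, with steps of 1.48 to 1.96.

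Gene lists were read as the share of weak sites that were strengthened, beside 12.2% over all genes. Forkhead factors, which bind DNA through a winged helix, had 12 of 41 (29.3%) at 7 of 15 genes, namely FOXO1, FOXD1, FOXC1, FOXC2, FOXF1, FOXL1 and FOXP1. FOXD1 had the largest of these outside FOXO1 and FOXP1, with 3.74, 2.57 and 2.78 in WT and 8.76, 8.58 and 8.31 in CREBBP-KO at 11.0 kb from its start. When a site was given to the gene whose body holds it, the forkhead share was 13%, against 10.4% over all genes. The lists hold few sites, and all of their 95% Wilson intervals include 12.2% except those of the forkhead factors, 17.6 to 44.5%, and of the YAP and TEAD pathway given further on. The forkhead exception rests on FOXO1, whose 5 sites share a locus. Without it, an alternative added after the data were seen, 7 of 36 (19.4%) were strengthened, with an interval of 9.75 to 35% that includes 12.2%. Weakened sites lay near FOXF1, FOXN3 and FOXP1, 1 each.

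In the TGF-β pathway 11 of 60 weak sites (18.3%) were strengthened, at 8 of 16 genes. The ligand genes were TGFB2, at its promoter, and INHBA, an activin subunit. TGFB2 had 3.74, 4.42 and 3.81 in WT and 6.07, 6.10 and 5.93 in CREBBP-KO. Receptors were represented by TGFBR2 and ACVR2A, the signal transducers by SMAD3, and the latent ligand binding proteins by LTBP1 and LTBP2. At the LTBP2 promoter the folds were 3.77, 3.82 and 3.64 in WT and 6.37, 6.85 and 6.17 in CREBBP-KO. The inhibitor SMAD7 had 3 sites, all of its weak ones, spread over 48.3 kb, with steps of 1.39 to 2.71. The pathway also had 4 weakened sites, near TGFBR3, SKI, INHBA and ACVR2A, so that INHBA and ACVR2A had sites of both kinds. In the BMP pathway 2 of 19 (10.5%) were strengthened, near the target gene ID2 and at the promoter of the antagonist NOG, which had 4.23, 4.91 and 4.65 in WT and 8.34, 6.79 and 6.94 in CREBBP-KO.

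In the Wnt pathway 10 of 56 (17.9%) were strengthened, near WNT5A (a ligand), FZD8 (a receptor), CTNNB1 (β-catenin), TCF7L2 (its DNA-binding partner), and DKK3 and SFRP1 (secreted modulators). The largest CTNNB1 step, 1.59, lay 275 kb from its start in an intron of ULK4, with 3.10, 2.58 and 3.30 in WT and 6.57, 5.90 and 5.25 in CREBBP-KO. By gene body the Wnt share was 3.70%, below that over all genes, and 2 weakened sites lay near WNT5A and WNT5B. The Notch pathway had 3 of 23 (13%), and the larger site near the ligand gene JAG1, 522 kb from its start, had 4.04, 4.16 and 3.31 in WT and 9.79, 8.24 and 7.60 in CREBBP-KO. The EGF receptor pathway had 8 of 66 (12.1%), at the level of all genes. Near DUSP4, a phosphatase of MAP kinases, 3.21, 4.03 and 2.96 in WT stood against 11.9, 9.30 and 10.1 in CREBBP-KO.

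Histone acetyltransferases had 4 of 20 weak sites strengthened (20.0%), near CREBBP, EP300, NCOA1 and NCOA3. The site in an intron of CREBBP itself, on chromosome 16 from 3822425 to 3826196, had 4.28, 3.67 and 2.62 in WT and 5.51, 8.61 and 6.07 in CREBBP-KO. The site near EP300 lay 63.3 kb from its start and had 3.89, 4.80 and 4.30 in WT and 6.37, 6.68 and 7.84 in CREBBP-KO. Both had small steps, of 1.29 and 1.33. The acetyltransferases also had 3 weakened sites, near KAT6B, NCOA2 and NCOA3, so that NCOA3 had sites of both kinds. Deacetylases and BET readers had 1 of 11 (9.09%), near HDAC4, and 1 weakened site near HDAC2.

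Intestinal identity factors had 6 of 29 (20.7%), near KLF4 and SOX9 among others. Their 3 weakened sites lay near HNF4G and KLF5. The largest KLF4 step was 544 kb from its start, with 4.35, 3.40 and 3.93 in WT and 7.87, 8.11 and 8.99 in CREBBP-KO. Near SOX9, which marks crypt progenitors, the larger of both sites had 4.00, 4.59 and 4.11 in WT and 7.07, 9.25 and 11.3 in CREBBP-KO. The CREB and ATF family had 3 of 19 (15.8%), near CREB5 and CRTC3, NF-kB, chemokine and cytokine genes 3 of 18 (16.7%), near LIF and TNFAIP2, and the AP-1 family 1 of 9 (11.1%), near FOSL2. These shares lay on both sides of that of all genes and rest on few sites.

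At or below the level of all genes were mesenchymal genes with 5 of 49 (10.2%), 3 of them near FN1 (fibronectin), p53 targets with 2 of 18 (11.1%), cholesterol synthesis with 2 of 19 (10.5%), protein tyrosine phosphatases with 3 of 30 (10.0%), interferon response with 1 of 11 (9.09%), and integrins and laminins with 2 of 27 (7.41%). Nuclear receptors had 3 of 51 (5.88%), near PPARD, PPARG and NR5A2, and 5 weakened ones, among them sites near PPARA and VDR. The mesenchymal genes likewise had 5 weakened sites, near ZEB1, ZEB2, TWIST1 and PRRX1. Integrins and laminins had 4, near ITGA2, ITGB3, ITGB8 and LAMB3. The YAP and TEAD pathway, which relays cell density and tension, had 0 of 41, which allows a share of up to 7.32%, and its Wilson interval ended at 8.57%. By gene body it had 1 of 37 (2.70%), with an interval of 0.479 to 13.8% that includes the 10.4% over all genes, and 2 weakened sites lay near CCN2. Epithelial genes had 0 of 9 and the p63 family with basal genes 0 of 6, too few sites to set a limit below the share of all genes.

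The merged interval of a strengthened site was 2086 bp wide at the median (95% interval 2039 to 2137, range 517 to 12419). Sites under 5 in WT were 1771 bp wide, weakened sites 2127 bp and all shared intervals 2598 bp. Strengthened promoters were the narrowest class, with 1675 bp, against 2276 bp in introns and 2057 bp between genes. Promoters were also the narrowest class of sites under 5 in WT, with 1541 bp, whereas over all shared intervals they were the widest, with 3092 bp.

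The peaks themselves widened along with their height. Summed over the peaks of a library and averaged over the 3 libraries, the width at the median site was 1140 bp in WT and 1680 bp in CREBBP-KO, and the median ratio was 1.43. CREBBP-KO was wider at 1291 sites (89.0%) and wider in every library at 768 (53%), against 52.4 and 16.4% of all shared intervals. Width and height come from the same peak calls, so this repeats the contrast that chose the sites. In WT alone, strengthened sites were also the wider ones at a given WT fold, with a median of 1266 bp against 1181 bp for the others at a fold of 4 to 4.5, and 900.3 bp against 846.7 bp at 3 to 3.5.

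The median summit position moved little between the genotypes, while the summits of single libraries spread more widely. For each site, the median summit position of the WT libraries was compared with that of the CREBBP-KO libraries. The distance between these positions was 72 bp at the median site. It was within 250 bp at 1167 sites (80.5%), against 78.9% of all shared intervals and 69.5% of sites under 5 in WT. It was over 1000 bp at 45 sites. Over all libraries of both genotypes, the summits of a site spanned 412.5 bp at the median, against 422 bp for all shared intervals. This span was at most 500 bp at 818 strengthened sites (56.4%). A single peak was called in every WT library at 1094 sites and in every CREBBP-KO library at 1119.

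Strengthened sites were richer in GC than the sites they were drawn from. In the 301 bases around the summit the median GC content was 49.5% (95% interval 48.8 to 50.2), against 44.9% at sites under 5 in WT, 46.2% at all shared intervals and 40.9% at weakened sites. Away from promoters it was 47.8%, against 44.2, 43.5 and 40.9%. At promoters it was 66.1%, against 66.4% at all shared promoters. A ratio of observed to expected CpG of at least 0.6 is part of the usual definition of a CpG island. It was reached at 218 sites (15%), against 5.69% of sites under 5 in WT and 19.5% of all shared intervals.

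The share of weak distal sites that were strengthened rose with every step of GC content, from 6.03% under 40% GC through 9.98, 12.2, 14.6 and 20.6 to 24.7% at 60% GC and over. A similar order held over all shared distal intervals, where all CREBBP-KO percentiles lay above those of WT at 14.7% of the lowest and 47.3% of the highest GC class. GC content thus moved with the difference between the genotypes across the genome, and its part in the strengthening was not tested. When the fold of each library was centred by GC content, 1137 sites passed the rule, and 986 of these were among the 1450, or 68.0% of the latter.

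**Figure D4:**
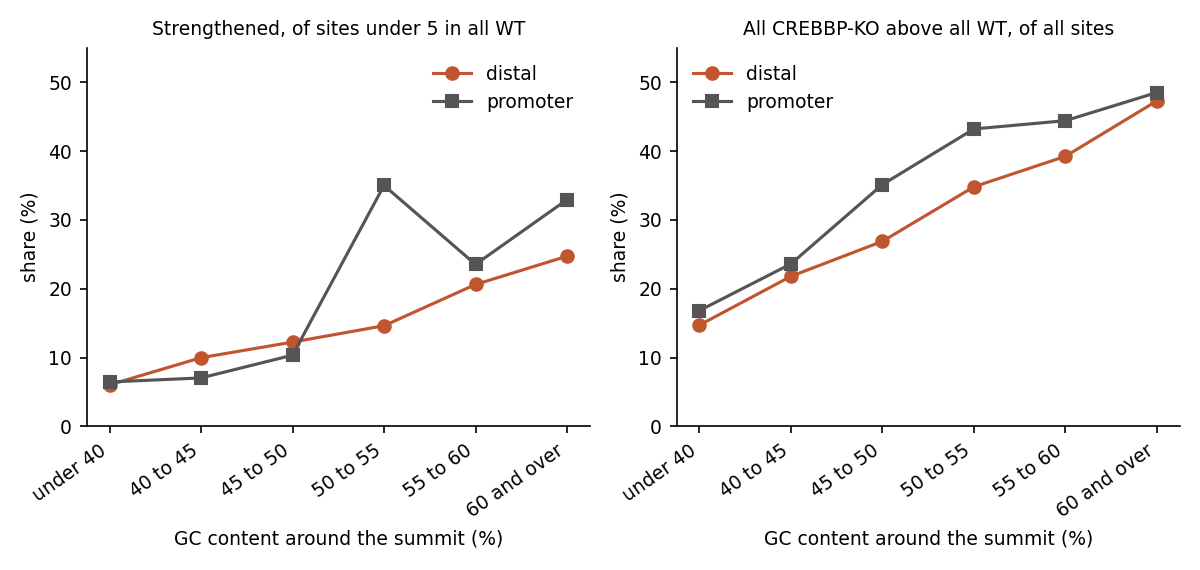
Left, share (%) of sites under 5 in all WT libraries that were strengthened, and right, share (%) of all sites with a peak in all 6 lists whose 3 CREBBP-KO percentiles all lay above the 3 WT percentiles, by GC content of the 301 bases around the summit, for distal sites (circles) and promoters (squares). At distal sites the shares rise from 6.03 to 24.7% and from 14.7 to 47.3%, and the promoter classes under 60% GC in the left panel hold only 58 to 80 sites each.

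Motifs were searched in the same 301 bases on both strands. None of the 19 motifs is contained in another, though matches may overlap. The sets differ in GC content, as given above, and the motif shares were not matched for it. Its part in the differences below was not tested. The KLF/SP motif (GGGCGGG) was found at 8.97% of strengthened sites (7.60 to 10.5), against 4.11% (3.77 to 4.48) of sites under 5 in WT, 9.55% of all shared intervals and 2.00% of weakened sites. Away from promoters it was found at 4.63% (3.60 to 5.94), against 2.65% (2.37 to 2.97). The E-box bound by ZEB factors (CAGGTG) was found at 23.9% (21.8 to 26.2), against 20.7% (19.9 to 21.4) and 16.8% of weakened sites. For the E-box away from promoters the intervals of strengthened sites (20.5 to 25.1) and of sites under 5 in WT (19.5 to 21.0) overlapped, and for KLF/SP they did not. Strengthened sites are themselves part of the sites under 5 in WT.

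AP-1 (TGANTCA) was found at 11.3% of strengthened sites (9.78 to 13), against 13.9% (13.3 to 14.5) of sites under 5 in WT and 14.6% of weakened sites. SOX (AACAAT) was found at 13%, against 16.3 and 18.8%, RUNX (TGTGGTT) at 4.76%, against 6.28 and 6.41%, and the forkhead motif (TGTTTAC) at 4.41%, against 5.38 and 7.99%. CCAAT was found at 27.6%, against 30.5 and 36.4%. The intervals of strengthened and weakened sites did not overlap for SOX, the forkhead motif and CCAAT, and overlapped for AP-1 and RUNX.

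TEAD (GGAATG) was found at 16.1%, against 17.0 and 16.7%, CEBP (TTGCNNAA) at 12.6%, against 13.8 and 14.0%, and TCF/LEF (CTTTGAA) at 5.86%, against 7.22 and 7.47%. The motifs of GATA factors and CDX (AGATAAG and TTTATGG) were found at 3.59% each and that of ETS factors (CCGGAAG) at 1.86%, against 4.08, 4.18 and 1.34% of sites under 5 in WT. The cyclic AMP response element (TGACGTCA), the motif of the CREB proteins that gave CREBBP its name, was found at 1 site (0.0690%), against 0.118%. STAT, NF-kB, HNF4, GRE and NFI motifs were each found at under 1% of the sites. A match to a few letters is no evidence of binding.

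The median distance from a strengthened site to the next was 339 kb, against 758 kb between weakened sites. Another within 50 kb was found for 239 (16.5%) of the strengthened and 74 (7.78%) of the weakened sites. A larger set is more closely spaced by its size alone, and no set of equal size was measured. The values therefore do not show whether strengthened sites cluster. Joined at 50 kb, 1211 stood alone, 98 runs held 2, 13 runs held 3 and 1 run held 4. The runs of 3 included COL4A4 (19.8 kb), TNS3 (22 kb), BDH1 (25.7 kb), FN1 (31.0 kb), SMAD7 (48.3 kb), ROR2 (48.8 kb) and ZNF385B (60.7 kb).

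The intervals around them leaned the same way. Of 4280 other shared intervals within 50 kb of a strengthened site, 34.3% had all CREBBP-KO percentiles above all WT percentiles and 7.80% the opposite, against 26.9 and 12.5% of all 50737 others. Within 10 kb the first share was 39.1%, and within 100 kb 32.2%. At promoters of at least 5 in some WT library it was 45.5% within 50 kb and 44.2% over all such promoters.

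Among 317 windows of 1 Mb with at least 10 weak sites, the median share strengthened was 9.09%, and 82 windows (25.9%) held none. The highest share, 8 of 10 (80.0%), was on chromosome 13 from 40 to 41 Mb, around FOXO1. It holds the only run of 4, over 61.6 kb from 40146097 to 40207684, some 460 to 517 kb downstream of the FOXO1 start. Of its 9 other shared intervals 5 had all CREBBP-KO percentiles above WT, and the highest of them had 10.0, 9.38 and 7.22 in WT and 23.3, 22.9 and 25.4 in CREBBP-KO.

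The window on chromosome 3 from 197 to 198 Mb held 6 of 11 (54.5%), near BDH1, DLG1, MELTF and RUBCN. On chromosome 9 from 91 to 92 Mb it was 6 of 13 (46.2%) with 1 weakened site, near AUH, NFIL3 and ROR2, a receptor for WNT5A. The strongest ROR2 site, in an intron, had 4.14, 3.17 and 3.43 in WT and 9.30, 8.44 and 8.76 in CREBBP-KO. Chromosome 1 from 51 to 52 Mb held 5 of 11 (45.5%), near RNF11, TTC39A and OSBPL9, but only 5 of its 33 other shared intervals had all CREBBP-KO percentiles above WT. Chromosome 6 from 149 to 150 Mb held 5 of 12 (41.7%), near TAB2, an adaptor of the kinase TAK1, and at the promoters of ULBP1 and ULBP2, ligands of the natural killer receptor NKG2D. A window on chromosome 8 from 133 to 134 Mb, near CCN4, SLA and TG, had the same share.

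By chromosome, 17.7% of weak sites were strengthened on chromosome 19 and 8.50% on chromosome 4, which held 93 weakened against 56 strengthened sites. The X chromosome had the lowest share, 6.21% (9 of 145), with 21 weakened sites.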

How the data were processed

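H3K27ac ChIP-seq peak lists of 3 WT and 3 CREBBP-KO HCEC libraries were analysed. The authors used hg38 and the nf-core pipeline for ChIP-seq, with BWA named in the submitters' processing notes, and MACS2 gave 1 narrow peak list per library. The deposited fold is a linear ratio over local background, the deposited −log10 p and −log10 q give significance, and the deposited score was not used. The study gives an average sequencing depth and a cap for downsampled reads, but the deposited lists carry no counts of reads. The depth behind each list is therefore unknown, and heights have no counting interval. The control input, and whether downsampling preceded these lists, are not given in the sources used here. Input libraries were not analysed here.

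Overlapping or touching peaks were merged and the rule applied to the highest fold per list. Rank shifts were fitted with limma 3.58.1 (R 4.3.3; lmFit, eBayes with trend, normal scores, Benjamini-Hochberg adjustment) and tested on simulated data. Annotation was GENCODE release 44. Intervals were built in Python 3.11.15 (scipy 1.17.1, pandas 2.3.3, numpy 2.4.6) and the merge was checked with bedtools 2.31.1. Members, lists, motifs and tests were chosen with earlier results of these data known. Named sites were the 20 largest steps, the 10 largest promoter steps, the 5 genes with most members, the 5 windows of 1 Mb with the largest share, the largest step per gene list, and the 3 sites just inside and outside the limit. Genes named beyond these were chosen after their values were seen. Alternatives changed the limit, merging, promoter distance, gene assignment and model, and left out each library. Some items that these rules pick are not reported here.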

Additional observations from a re-analysis of the deposited data

How the results depend on the processing

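The number of strengthened sites was 1450 and depended on the limit and on how strictly it was applied. A limit of 3 gave 173 sites, of which 16 were among the 1450, a limit of 4 gave 1064 (315 shared) and a limit of 6 gave 1480 (559 shared), so each limit picks largely different sites. At least 5 in 2 of 3 CREBBP-KO libraries with a WT mean under 5 gave 4796, peaks with −log10 q of at least 5 gave 898, and a step of at least 1.5, added after the data were seen, gave 408. A limit on the percentile gave 2167, which included all 1450. Leaving out each library gave 1854 to 2022.

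The promoter share was 15.9% at 2 kb, 21.2% with the starts of all genes, 16% with any overlap, 18.2% at a limit of 6, 10.8% at a limit of 4, 7.48% after GC centring, and 12.2 to 15.8% on leaving out each library. The median width was 2366.5 bp at a limit of 6, 1890.5 bp at a limit of 4, 1140 bp from the WT and 1680 bp from the CREBBP-KO peaks alone, 2166 bp after GC centring, and 2036 to 2118.5 bp on leaving out each library. The neighbourhood share was 39.1% within 10 kb and 32.2% within 100 kb. By gene body, 10.4% of weak sites in genes were strengthened. Apart from what an alternative changes by its construction, the cause was not tested.

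Replicate numbers are shared by the genotypes, but the correlations of same-numbered deviations were 0.000173, 0.00156 and 0.00468, so they do not pair the libraries. With a replicate block, 1094 of the 1450 sites were called higher by limma, in place of 1122. The other models gave 1037 without a trend, 1237 on log2 folds and 827 to 1046 on leaving out each library. Over all shared intervals, the fit without a trend called 4003 higher and 3898 lower.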
